A study of Mus musculus with 8 samples.

Results

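Binding sites of the transcription factor GATA2 were examined at 10 genes of the Notch pathway in 3T3-L1 cells, a clonal line of mouse preadipocytes, and in C3H10T1/2 cells, a mouse embryonic fibroblast line that can enter several mesenchymal lineages. The genes were the receptors Notch1, Notch2, Notch3 and Notch4, the ligands Jag1 and Dll1, the nuclear effector Rbpj and the target genes Hes1, Hey1 and Heyl, which are 10 of the 21627 protein-coding genes compared. They were chosen by name, with earlier results of these data known. Peaks came from chromatin immunoprecipitation with sequencing (ChIP-seq). Each peak was assigned to a gene when its centre lay in the gene body, within 10 kb of the gene's ends or within 100 kb. For each line the labels list libraries made with a GATA2 antibody and input libraries made without one, 2 of each, which gives 4 groups. They name no treatment, time or genetic change, and both lines were grown as their supplier advises. Per the labels' protocols, a library was made from the pooled DNA of several immunoprecipitations. A single peak list per line was analysed, with 2445 peaks in 3T3-L1 and 1557 in C3H10T1/2. Since replicates are not kept apart in these lists, no difference between the lines could be tested, and the sequencing depth behind the lists is unknown. Peaks carry a position and a width in bp but no height, and no expression values were used here, so neither the strength of a site nor the activity of a gene is described. All coordinates are mm10 and are counted from 1.

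In the Notch pathway, a ligand of the Delta or Jagged family on one cell binds a Notch receptor on its neighbour. The receptor is then cut, and its intracellular part enters the nucleus, where it joins the DNA-binding protein RBPJ and turns on genes such as Hes1, Hey1 and Heyl, which encode repressors with a basic helix-loop-helix domain. Notch signalling has been studied as a regulator of fat cell formation, and in the formation of blood stem cells of the mouse embryo Gata2 is a target of Notch1 and RBPJ that HES1 represses. GATA2 binds DNA through 2 zinc fingers and is known for holding precursor cells of blood and fat in an immature state.

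GATA2 peaks lay within 100 kb of some members of the pathway, while the other 6 of 10 had none that near in either line. Of all protein-coding genes, 80.4% had none that near in either line. Both lines had a peak that near at 2 of 10 members, beside 6.35% of all protein-coding genes. In 3T3-L1, peaks reached 4 of 10 members within 100 kb (Notch1, Jag1, Rbpj and Hes1), while 13.9% of all protein-coding genes had a peak at that distance. In C3H10T1/2 it was 2 of 10 members (Notch1 and Hes1), beside 12.1% of all protein-coding genes. In the gene body or within 10 kb there was a peak at 3 of 10 genes in 3T3-L1 (Notch1, Rbpj and Hes1), beside 3.96% of all genes, and at 2 of 10 in C3H10T1/2 (Notch1 and Hes1), beside 3.64%. Inside the gene body it was 2 of 10 genes in 3T3-L1 (Notch1 and Rbpj), beside 2.78%, and 1 of 10 in C3H10T1/2 (Notch1), beside 2.59%. In the 50 kb around the genes the count was 3 of 10 in 3T3-L1, beside 8.6%, and 2 of 10 in C3H10T1/2, beside 7.37%. At 200 kb it was 4 of 10 in 3T3-L1, beside 23.4%, and 3 of 10 in C3H10T1/2, beside 20.5%, where Heyl joined. The median number of peaks per gene within 100 kb was 0 for the 10 members and 0 for all genes in both lines. The counts are small, and the genes' lengths set how much sequence is searched. The members had a median length of 29.7 kb (range 2.44 to 137) and all protein-coding genes one of 17.3 kb. The members were also chosen with earlier results of these data known, so these shares do not test for an excess.

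**Figure D1:**
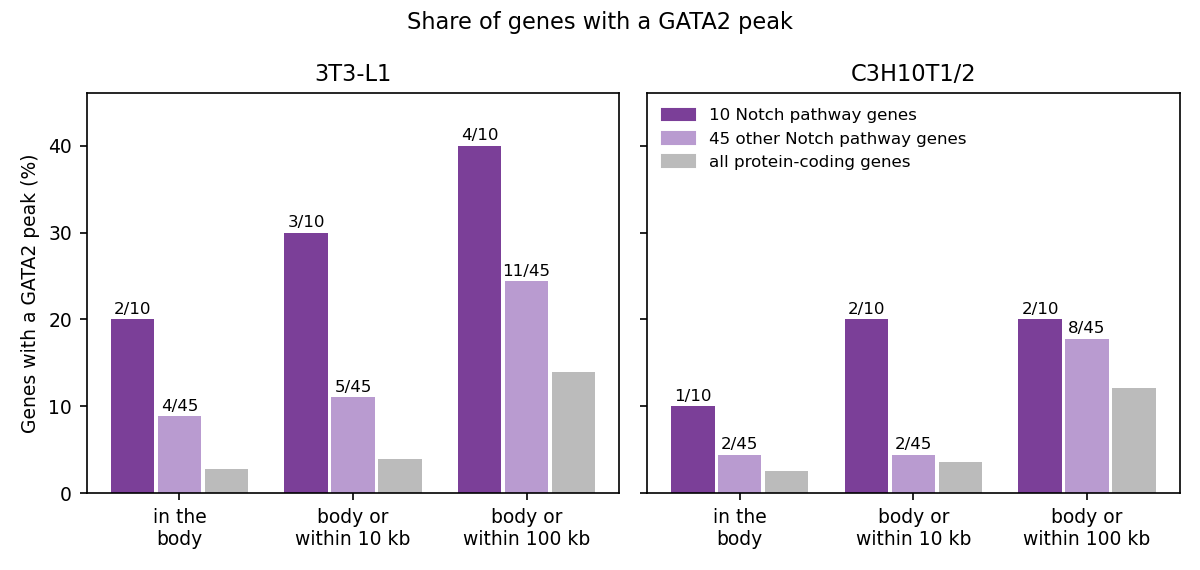
Percentage of genes with a GATA2 peak centre in the gene body, in the body or within 10 kb, and in the body or within 100 kb, for the 10 Notch pathway genes (dark purple), 45 other Notch pathway genes (light purple) and all protein-coding genes (grey). The left panel is 3T3-L1 and the right panel C3H10T1/2, with genes counted above the bars; within 100 kb the members' count was 4 of 10 in 3T3-L1 and 2 of 10 in C3H10T1/2.

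The members' peaks within 100 kb were 7 in 3T3-L1 and 4 in C3H10T1/2, and together they made 8 separate sites. Of these sites 3 were in both lists, 4 in 3T3-L1 alone and 1 in C3H10T1/2 alone. Both genes that had a C3H10T1/2 peak within 100 kb also had a 3T3-L1 peak there. Of all protein-coding genes, 2607 had a C3H10T1/2 peak that near, and 1373 of these had a 3T3-L1 peak too. The 3 sites in both lists were all at these members, since any such site includes a C3H10T1/2 peak. Of the 7 peaks of 3T3-L1, 3 overlapped a C3H10T1/2 peak by at least 1 bp (42.9%, 95% exact Clopper-Pearson interval 9.9 to 81.6), beside 22.4% of the whole list. Of the 4 peaks of C3H10T1/2, 3 overlapped a 3T3-L1 peak (75.0%, interval 19.4 to 99.4), beside 34.7% of the whole list. The intervals cover counting error only and include the share of the whole list in both lines.

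**Figure D2:**
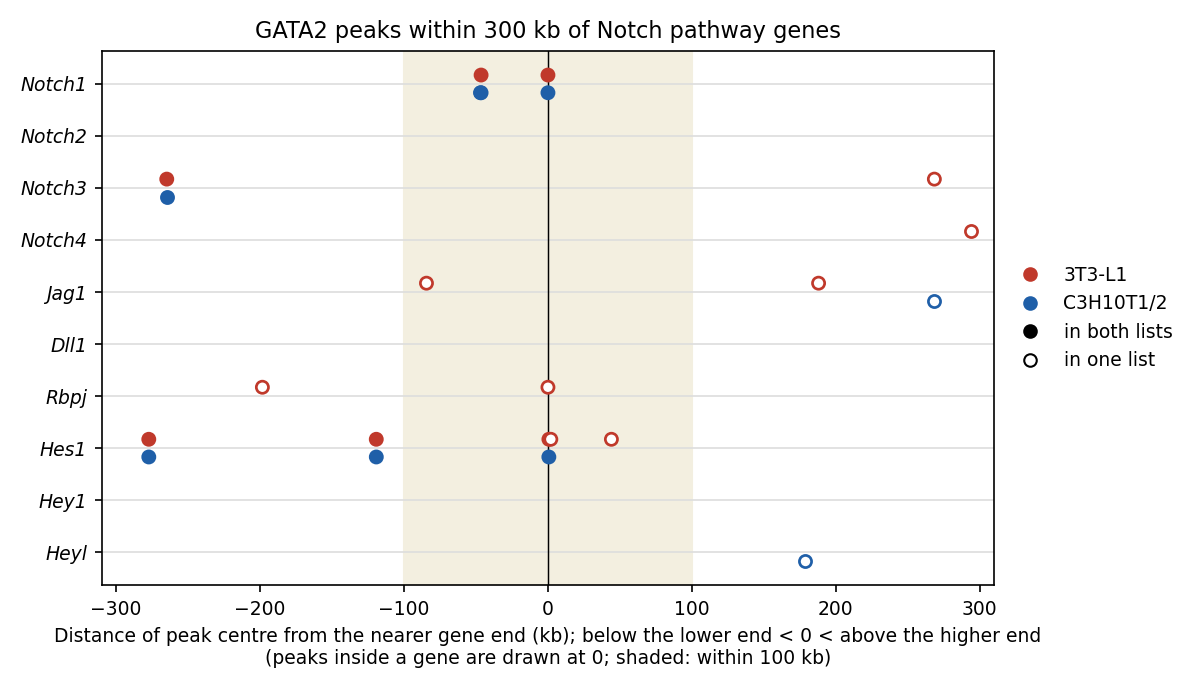
Peaks within 300 kb of the 10 genes, one gene per row, by the distance in kb of the peak centre from the nearer gene end, with 3T3-L1 in red above C3H10T1/2 in blue. Filled points overlap a peak of the other list and open points do not. An open C3H10T1/2 point 0.419 kb from the filled one below Notch1 is hidden by it. At Hes1 an open 3T3-L1 point 2.0 kb above the gene lies over a filled one 1.34 kb from it. Notch1 and Hes1 carry sites of both lines in the shaded 100 kb, Jag1 and Rbpj carry 3T3-L1 sites, and Notch2, Dll1 and Hey1 have none in the range drawn.

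Among the receptor genes, Notch1 was the only one of the 4 with a peak within 100 kb in either line. Having none that near in either line was common, at 80.4% of all protein-coding genes. Notch1 lies on chromosome 2 from 26457902 to 26503822, on the minus strand in the promoter table, so that its annotated start is the higher coordinate. A site inside the gene was found in both lines. In 3T3-L1 it covered 26500095 to 26500220 (126 bp), while in C3H10T1/2 it covered 26500030 to 26500243 (214 bp). The 3T3-L1 peak lay wholly within the C3H10T1/2 peak, and their centres were 21 bp apart. These centres lay 3.67 kb downstream of the annotated start in 3T3-L1 and 3.69 kb in C3H10T1/2. The site is therefore near the start of a gene of 45.9 kb; whether it is exonic or intronic was not analysed here.

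Further peaks within 100 kb of Notch1 lay past the gene's other end, inside the neighbouring gene Sec16a, which encodes a protein of the endoplasmic reticulum exit sites (chromosome 2, 26409431 to 26446293). One of them was in both lists, with the 3T3-L1 peak at 26411344 to 26411555, the C3H10T1/2 peak at 26411356 to 26411551, their centres 4 bp apart and the second wholly inside the first. Another peak at 26410952 to 26411117 was in the C3H10T1/2 list alone, its centre 0.419 kb from that of the first. Close pairs of this kind were not rare: 9.51% of all C3H10T1/2 peaks had another peak of that list within 2 kb, and 8.33% did without dense runs of peaks. Sec16a, not Notch1, is the nearest protein-coding gene to both sites, which lay 46.4 to 46.9 kb from Notch1 in C3H10T1/2 and 46.5 kb in 3T3-L1, and 8 other protein-coding genes reach into the 100 kb around Notch1.

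The other receptor genes had no peak in any of the windows. Notch3 (chromosome 17, 32120820 to 32166896) had its nearest peak 265 kb away in both lines, at a site in both lists whose centres were 1 bp apart (the 3T3-L1 peak at 31855918 to 31856022, the C3H10T1/2 peak at 31855904 to 31856039). That site lay 0.166 kb in 3T3-L1 and 0.167 kb in C3H10T1/2 beyond the higher end of Sik1, a gene for a salt-inducible kinase. Notch4 (chromosome 17, 34564286 to 34588543) had its nearest 3T3-L1 peak at 294 kb and its nearest C3H10T1/2 peak at 1440 kb. Notch2 (chromosome 3, 98013538 to 98150367), the longest member at 137 kb, was the receptor gene farthest from a 3T3-L1 peak, at 1050 kb, and had its nearest C3H10T1/2 peak at 1430 kb. The values for Notch2 and Notch4 in C3H10T1/2 lie close together, and 69.8% of all protein-coding genes had a C3H10T1/2 peak at least as near as either of them.

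The RefSeq promoter table (GRCm38.p6, the mm10 assembly) gave 9 start regions for 7 of the members, namely Notch1, Notch2, Notch3, Notch4, Jag1, Dll1 and Rbpj. No peak of either list overlapped any of these 9 regions. The same overlap was not counted over the start regions of all genes, so it does not set the members apart. The 250 bases upstream of the start are shown for Notch1 and Rbpj, whose starts lie nearer to a peak than those of the other members in the table, and for Notch3, a receptor gene with no peak within 100 kb. Of the 2 starts of Rbpj, the region of the more upstream one is shown (53590346, 3.11 kb from the peak); that of the other (53590486, 2.97 kb from the peak) overlaps it. Each is written 5' to 3' on the gene's strand, and capitals mark the letters GATA or their reverse complement TATC, the core that GATA factors recognise.
Notch1, chr2:26503823-26504072, minus strand: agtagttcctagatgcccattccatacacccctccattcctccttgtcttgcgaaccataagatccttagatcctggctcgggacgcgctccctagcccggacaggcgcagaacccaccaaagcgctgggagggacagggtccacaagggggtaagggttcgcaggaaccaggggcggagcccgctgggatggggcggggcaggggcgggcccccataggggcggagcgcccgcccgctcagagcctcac
Rbpj, chr5:53590096-53590345, plus strand: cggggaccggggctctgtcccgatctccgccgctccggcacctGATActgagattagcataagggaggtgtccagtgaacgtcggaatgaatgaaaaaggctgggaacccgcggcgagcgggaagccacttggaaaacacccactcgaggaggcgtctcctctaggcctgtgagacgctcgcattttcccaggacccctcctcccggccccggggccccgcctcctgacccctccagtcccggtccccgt
Notch3, chr17:32166891-32167140, minus strand: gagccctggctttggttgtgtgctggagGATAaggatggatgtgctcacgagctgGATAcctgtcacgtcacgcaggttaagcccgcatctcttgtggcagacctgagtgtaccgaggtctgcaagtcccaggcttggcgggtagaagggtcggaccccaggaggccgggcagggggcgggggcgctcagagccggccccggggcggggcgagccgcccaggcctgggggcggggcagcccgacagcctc

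The Notch1 sequence holds no GATA core, the Rbpj sequence holds 1, which begins 207 bases before the start (the region of the other Rbpj start holds 1 at 77 bases before it), and the Notch3 sequence holds 2, which begin 222 and 195 bases before it. Of the 9 start regions of members, 3 held the core (both of Rbpj and that of Notch3), and 49.1% of the 21044 start regions of protein-coding genes did. The longer motif, an A or T followed by GATA and then by an A or G, searched on both strands and containing the core, was in 0 of the 9 and in 23.6% of the 21044. The members' upstream bases were 56.0% to 72.0% G or C, beside a median of 55.6% for protein-coding genes. These matches describe letters in a window that held no peak, and the sequence under the peaks themselves was not analysed here.

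**Figure D3:**
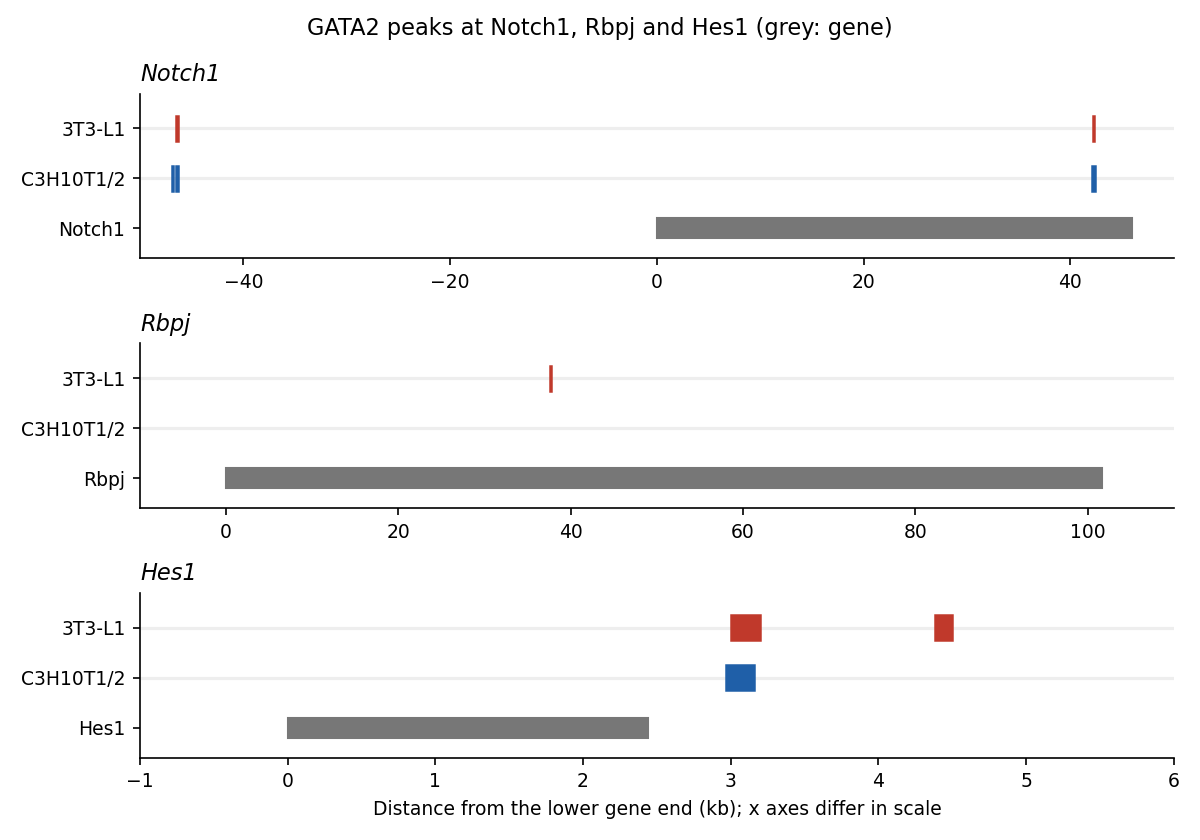
Peaks at Notch1, Rbpj and Hes1 drawn to scale along each gene (grey bar) by distance in kb from the gene's lower end, with 3T3-L1 in red above C3H10T1/2 in blue; the 3 horizontal axes differ in scale. The panels show the site of both lines inside Notch1, the 3T3-L1 site inside Rbpj with nothing in the C3H10T1/2 row, and the neighbouring sites beyond the higher end of Hes1.

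Of the ligand genes, Jag1 had 1 peak within 100 kb, in 3T3-L1 alone, and Dll1 had 0 in both lines. Jag1, which encodes the Notch ligand Jagged1, lies on chromosome 2 from 137081451 to 137116520 on the minus strand. Its 3T3-L1 peak, at 136997008 to 136997094, lay 84.4 kb below the gene's lower end and 119 kb downstream of its annotated start. This position is inside Slx4ip, the gene next to Jag1 on that side (chromosome 2, 136891213 to 137081351), whose body reaches almost to the end of Jag1. On the other side, upstream of Jag1, a 3T3-L1 peak at 137304501 to 137304610 lay 188 kb away inside the long noncoding RNA gene Gm14055. The nearest C3H10T1/2 peak to Jag1, at 137384510 to 137384633, lay on that upstream side too, at 268 kb. Jag1 was the nearest protein-coding gene to both upstream peaks, which do not overlap. Dll1, which encodes the ligand Delta-like 1 (chromosome 17, 15367354 to 15376932), had its nearest peak at 536 kb in 3T3-L1 and at 1700 kb in C3H10T1/2.

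Rbpj, which encodes the DNA-binding partner of the cleaved receptor, had the largest difference between the lists in the distance to the nearest peak among the 10 members. Rbpj lies on chromosome 5 from 53555779 to 53657445, a length of 102 kb, and in 3T3-L1 it held 1 peak in its body, at 53593417 to 53593499. The centre of this peak was 2.97 kb downstream of the nearer of the 2 annotated starts in the promoter table and 37.7 kb above the gene's lower end. The peak was 83 bp wide, with 8.94% of the 3T3-L1 list at or below that width (ties counted by their middle rank), so it is among the narrower peaks of its list. The nearest C3H10T1/2 peak to Rbpj, at 49761301 to 49761492, was 3790 kb away, and only 8.45% of protein-coding genes were farther from a C3H10T1/2 peak. A second 3T3-L1 peak, at 53357277 to 53357466, lay 198 kb below Rbpj and nearer to Smim20. As the depth of the lists is unknown, a weak site missed in C3H10T1/2 and a site not bound there cannot be told apart.

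Among the target genes, Hes1 had sites in both lines close to the gene and Hey1 and Heyl had none within 100 kb. Hes1, the repressor gene that is the best known target of Notch, is the shortest member at 2.44 kb (chromosome 16, 30065357 to 30067796). In both lines a site lay just beyond its higher end. In 3T3-L1 it covered 30068362 to 30068557, while in C3H10T1/2 it covered 30068327 to 30068518. The peak centres were 663 bp from the gene in 3T3-L1 and 626 bp in C3H10T1/2, and the peaks had 157 bp in common with centres 37 bp apart. A second peak, at 30069737 to 30069853, was in the 3T3-L1 list alone, 2.0 kb from the gene and 1.34 kb from the first by their centres. All 3 of these peaks lay inside Gm32998, a long noncoding RNA gene of 2.58 kb that begins just above Hes1 (30067863 to 30070438). In 3T3-L1, 22.6% of all peaks had another peak of the list within 2 kb, and 5.52% did without dense runs of peaks.

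Another 3T3-L1 peak lay 44.1 kb above Hes1, at 30111809 to 30111972, and had no C3H10T1/2 counterpart. No other protein-coding gene reaches into the 100 kb on either side of Hes1, so Hes1 is the nearest protein-coding gene to each of its peaks in that window. Beyond the 100 kb window, 2 sites below Hes1 were in both lists. One (3T3-L1 peak 29945936 to 29946216, C3H10T1/2 peak 29945917 to 29946283) lay 119 kb from the gene, with Hes1 again the nearest protein-coding gene. It was 281 bp wide in 3T3-L1 and 367 bp in C3H10T1/2, with 91.9% of the 3T3-L1 list and 96.0% of the C3H10T1/2 list at or below these widths. The other (3T3-L1 peak 29787935 to 29788108, C3H10T1/2 peak 29787952 to 29788106) lay 277 kb from Hes1 and nearer to Opa1, a gene for a mitochondrial fusion protein, at 125 kb. Within 300 kb of Hes1 there were thus 5 peaks of 3T3-L1 and 3 of C3H10T1/2. Each of these C3H10T1/2 peaks overlapped a 3T3-L1 peak, beside 34.7% of the whole C3H10T1/2 list. Peaks within 300 kb were not counted for all genes, so these numbers do not set Hes1 apart.

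Hey1 and Heyl encode repressors of the Hes-related family. Hey1 (chromosome 3, 8663359 to 8667038) had its nearest peak at 418 kb in 3T3-L1 and at 847 kb in C3H10T1/2. Heyl (chromosome 4, 123233556 to 123249870) was the one member with a nearer peak in C3H10T1/2 by a wide margin, at 178 kb, against 2250 kb in 3T3-L1. This C3H10T1/2 peak, at 123428281 to 123428375, lay inside Macf1, a gene for a protein that links actin and microtubules, and its 95 bp is the smallest width found in the C3H10T1/2 list.

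Ordered by their nearest 3T3-L1 peak, the members ran from Notch1 and Rbpj (inside the gene) and Hes1 (663 bp) over Jag1, Notch3, Notch4, Hey1 and Dll1 to Notch2 and Heyl. In C3H10T1/2 the order was Notch1, Hes1, Heyl, Notch3, Jag1, Hey1, Notch2, Notch4, Dll1 and Rbpj. The median distance over all protein-coding genes was 588 kb in 3T3-L1 and 744 kb in C3H10T1/2. In 3T3-L1, 8 members were nearer than that median, and Notch2 and Heyl were farther. In C3H10T1/2, 5 members were nearer (Notch1, Hes1, Heyl, Notch3 and Jag1) and 5 farther. With a single list per line these orders have no spread against which neighbours could be told apart.

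**Figure D4:**
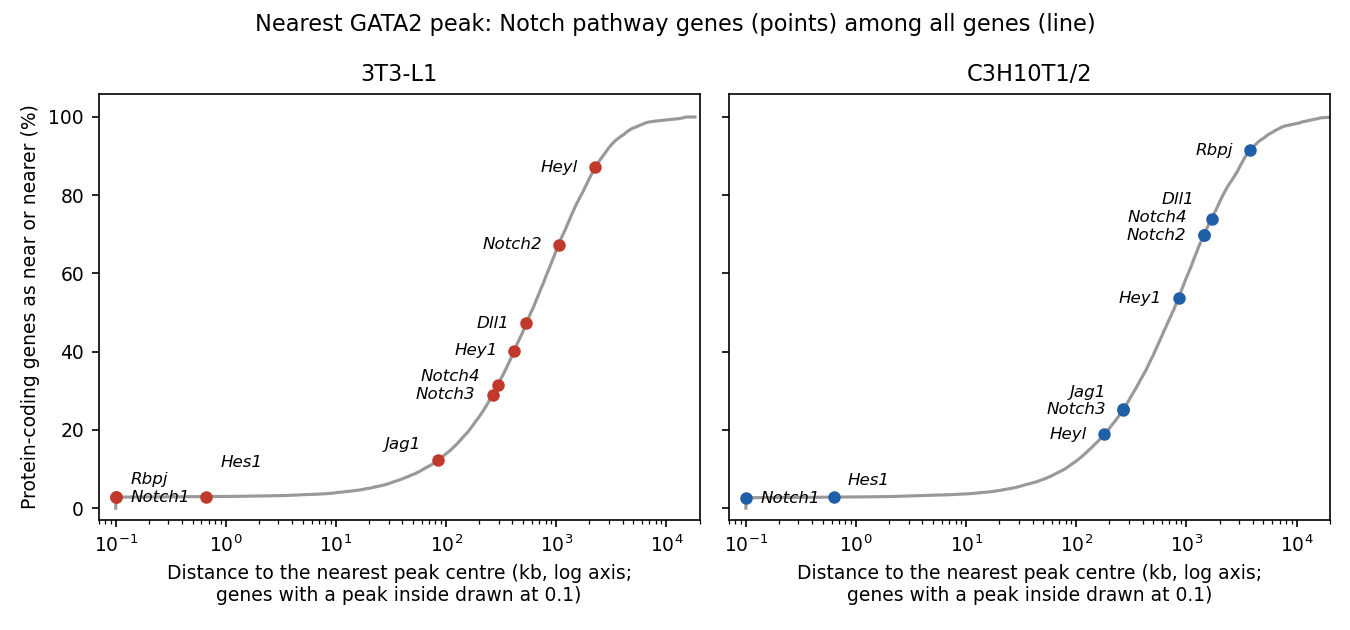
Distance in kb (log axis) from each protein-coding gene to its nearest peak centre against the percentage of genes as near or nearer (grey line), with the 10 Notch pathway genes as points, 3T3-L1 left and C3H10T1/2 right; genes with a peak inside are drawn at 0.1 kb. Notch1 and Hes1 are at the lower left in both panels, while Rbpj is there in 3T3-L1 and near the top in C3H10T1/2, where 91.6% of genes are as near or nearer.

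The widths of the members' peaks lay well within those of the lists. The 7 peaks of 3T3-L1 had a median width of 126 bp (range 83 to 212), beside 144 bp for the whole list. The 4 peaks of C3H10T1/2 had a median of 194 bp (range 166 to 214), beside 184 bp. The narrowest were the 3T3-L1 peaks at Rbpj (83 bp) and in Slx4ip near Jag1 (87 bp), both in that list alone. At the 3 sites in both lists the wider peak was that of 3T3-L1 in Sec16a (212 bp, against 196 bp in C3H10T1/2) and beyond Hes1 (196 bp, against 192 bp), and that of C3H10T1/2 inside Notch1 (126 bp in 3T3-L1, against 214 bp in C3H10T1/2). Over all 548 overlapping pairs of the lists the C3H10T1/2 peak was the wider in 68.4%, and the median distance between centres was 20 bp, beside 4, 21 and 37 bp at the members' sites.

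**Figure D5:**
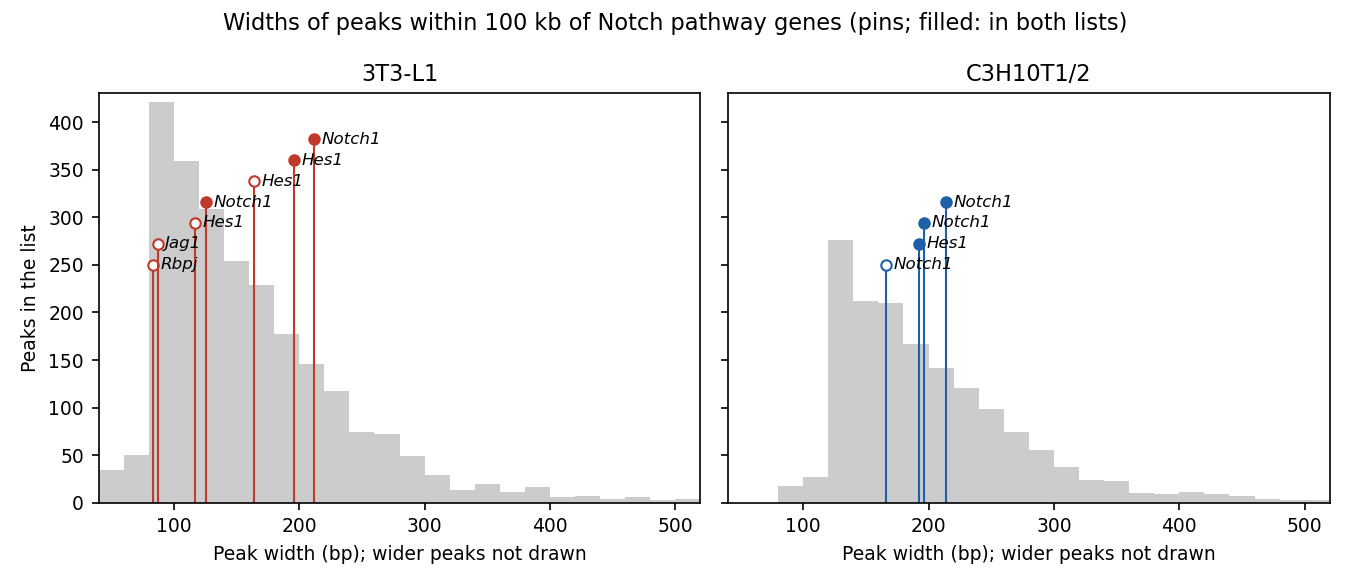
Widths in bp of all peaks (grey bars, bins of 20 bp; the widest peaks lie beyond the axis) and of the members' peaks within 100 kb (pins, with the member named; filled pins are in both lists), 3T3-L1 left and C3H10T1/2 right. Pin heights only separate the names; the pins run from 83 to 212 bp in 3T3-L1 and from 166 to 214 bp in C3H10T1/2.

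The wider pathway was described with a list of 45 other Notch genes. Within 100 kb, 11 of the 45 had a 3T3-L1 peak (24.4%, beside 13.9% of all genes). For C3H10T1/2 peaks it was 8 of the 45 (17.8%, beside 12.1%). Both counts held 5 of these genes (11.1%, beside 6.35% of all genes). In the body or within 10 kb it was 5 of 45 in 3T3-L1 (11.1%, beside 3.96%) and 2 of 45 in C3H10T1/2 (4.44%, beside 3.64%). Genes with a peak in this nearer window were Dner, Maml1, Maml3, Fbxw7 and Kat2b among others. Of the 45, Dner alone (2.22%) had such a peak in both lines, beside 1.68% of all genes.

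Several of these genes act in the nucleus beside Rbpj. Of 9 nuclear coactivators and corepressors, 3 had a peak in this nearer window in 3T3-L1, beside 3.96% of all genes. This group was formed, like the other role groups, after the values were seen, so no comparison between the groups is drawn. Kat2b, which encodes a histone acetyltransferase, held a peak at 53650249 to 53650501 on chromosome 17. Maml1, which encodes a coactivator of the Mastermind family that binds the complex of Notch and RBPJ, had a peak at 50252169 to 50252347 on chromosome 11, 3.38 kb below the gene. In C3H10T1/2, 1 of the 9 had such a peak, beside 3.64% of all genes. This was Maml3, another Mastermind gene, with its peak at 51908537 to 51908723 on chromosome 3. No overlap was found between any of these 3 peaks and a peak of the other list.

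In the body or within 10 kb, 3.96% of all genes had a peak in 3T3-L1 and 3.64% in C3H10T1/2. The other role groups are set beside these shares. Dner, a gene for a neuronal protein described as a Notch ligand, had 2 peaks of 3T3-L1 and 3 of C3H10T1/2 in its body, and both 3T3-L1 peaks (chromosome 1, 84518427 to 84518582 and 84523070 to 84523153) overlapped a C3H10T1/2 peak. It was the only one of 6 further ligand and ligand-related genes with a peak in the body or within 10 kb. Fbxw7, which encodes the ubiquitin ligase subunit that marks the Notch intracellular domain for breakdown, held a 3T3-L1 peak at 84936466 to 84936595 on chromosome 3, and none of the other genes among 12 for trafficking and ubiquitination had a peak that near in either line. Among 13 genes for receptor cleavage and glycosylation and 5 genes grouped here as further targets the count in that window was 0 in both lines. With 3.96% and 3.64% of all genes there, a count of 0 in groups this small does not set them apart. Within 100 kb the count for cleavage and glycosylation was 1 of 13 in 3T3-L1, beside 13.9% of all genes. In C3H10T1/2 it was 3 of 13, beside 12.1%. Each of these peaks lay inside another protein-coding gene. Those of both lines near Poglut1 were in Pla1a, 99.6 kb away. The C3H10T1/2 peaks near Psen2 and Rfng were in Itpkb, at 80.6 kb, and in Aspscr1, at 82.6 kb. For the genes grouped as targets it was 1 of 5 in each line, Hes6, beside the same shares. The peaks near Hes6 lay inside Per2, 32.2 kb from Hes6. Whether the genes of this group respond to Notch in these cells was not tested.

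Notch1, the member with the most peaks within 100 kb when the lists are added (2 in 3T3-L1 and 3 in C3H10T1/2, beside 3 and 1 at Hes1), was compared with all other genes by its 6 counts, over the 3 windows in the 2 lists. Leaving out genes within 200 kb of it, 2 genes had the same 6 counts, Fam50b on chromosome 13 and Umad1 on chromosome 6, and 15 more differed by a single count. Each line contributes only 1 list to this likeness, so it has no replicate check.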

How the data were processed

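GATA2 ChIP-seq peaks of 3T3-L1 and C3H10T1/2 cells were analysed, with 2 ChIP and 2 input libraries behind each line per the labels. The deposited files are 2 peak lists with chromosome, start and end and no score, so the values are positions in bp; intervals were read with the start counted from 0. Coordinates are on mm10, per the submitters' processing notes, which also list MACS2, Bowtie2, bedtools, SAMtools and CASAVA 1.8. Their roles, the peak threshold, the use of input and the pooling of libraries are not given in the sources used here, and all of them affect which peaks are listed. Depth is unknown.

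Genes on chromosomes with peaks (21627 protein-coding) came from the RefSeq table of GRCm38.p6. All 10 members and all 45 other Notch genes matched. A peak was assigned by its centre, and windows include the gene body. Peaks were called shared at an overlap of at least 1 bp. Dense runs were at least 8 peaks with gaps of at most 20000 bp. Assignment was tested on simulated data against bedtools 2.31.1; Python 3.11.15, pandas 2.3.3 and scipy 1.17.1 were used. No significance test was made. Every member was named, as was each other Notch gene with a peak within 10 kb, except for a result that is not reported here; Notch3's start region and the role groups were chosen after values were seen. The members and lists were chosen with earlier results of these data known.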

Additional observations from a re-analysis of the deposited data

How the results depend on the processing

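Apart from the settings named here, the counts over each list, the shares and the median widths stayed within 1.5 times their reported value, within their interval or within 1 SD of the members' widths. For single members, 11 of the counts under another setting moved by more than 1.5 times and 109 did not. With only peaks of at least the median width of their list, the 3T3-L1 counts were 2 members within 100 kb, 1 in the body or within 10 kb and 0 in the body, with 3 peaks in all and 6 of the 45 other Notch genes within 100 kb; the peaks inside Notch1 and Rbpj and the one near Jag1 are narrower than that median. Measured from annotated starts, 2 members in 3T3-L1 and 1 in C3H10T1/2 had a peak within 100 kb, and 1 member in C3H10T1/2 had one within 10 kb; the 7 members with an annotated start here do not include Hes1. When a peak counted for its nearest gene alone, 2 member peaks of C3H10T1/2 were left, and 6 and 3 of the other Notch genes had a peak in 3T3-L1 and in C3H10T1/2, since neighbouring genes take the rest. Within 50 kb, 5 of the other Notch genes had a C3H10T1/2 peak. With centres within 1 kb counted as shared, 100.0% of the C3H10T1/2 member peaks (4 of 4) were shared. Leaving out dense runs of peaks, or counting any base of a peak, left these gene counts as reported. Leaving out single libraries was not run, since the lists give no values per library. No paired analysis was possible because each list stands for a whole line and carries no replicate number. The unknown depth limits every statement that a site is in one list alone.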
